A study of Mus musculus with 7 samples.

Results

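The cytosolic ribosomal proteins are the proteins that, together with ribosomal RNA, build the ribosome of the cytoplasm. Their genes were taken from the deposited table by symbol, as Rpl, Rps and Rplp genes and Rpsa. Processed copies marked -ps and the S6 kinases were left out. The symbol pattern also left out some close relatives, such as Rpl36al, Rpl37rt and Rps27rt. A mean RPKM over all libraries of at least 1 was required. RPKM is the number of reads of a gene scaled to the length of its transcript in kilobases and to the mapped reads of the library. This gave 83 members of 16047 genes in the table, 51 of the large subunit and 32 of the small subunit. Of the members, 76 were core proteins of the ribosome and 7 were paralogs (Rps27l, Rpl32l, Rpl7l1, Rpl22l1, Rps4l, Rpl3l and Rpl39l). All 83 members passed the filter on low values, so that each of them was tested.

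The RNA came from neutrophils of C57BL/6 mice killed 24 h into acetaminophen-induced liver injury (AILI), sorted from the liver as CD11b+Ly6CloCX3CR1-GFP-Ly6G+ cells at 50000 cells per liver. All mice received acetaminophen. The 4 control mice (PBS, replicates 5 to 8) received the PBS buffer, and the 3 MC-21 mice (replicates 2 to 4) received the antibody MC-21 against CCR2 (400 µL of conditioned medium at 29 µg/ml), from 12 h before the challenge and every 24 h, which leaves the liver without infiltrating Ly6Chi monocytes. The comparison addresses how neutrophils differ when those monocytes are missing. Since the controls received buffer, the loss of monocytes cannot be told apart from other effects of the antibody or its medium. The antibody reaches every CCR2-bearing cell of the mouse, and only 1 time point was sampled.

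A ribosome carries 1 copy of nearly every core protein, and cells make these proteins in step. Their mRNAs are short, abundant and, as a class, begin with a C and a run of pyrimidines, the 5′ terminal oligopyrimidine (TOP) motif, through which mTORC1 signalling and the RNA-binding protein Larp1 set their translation. Control of the class in the cell is therefore largely a matter of translation, which RNA-seq does not measure. Ribosomal protein genes also have many processed pseudogenes. Neutrophils fill their granules with protein while they mature in the bone marrow.

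The transcript starts are shown because this motif is known for the class and the rule did not use it. RefSeq promoters (GRCm38.p6) were matched by symbol for 62 of the 83 members, with 73 starts. The motif searched on the transcribed strand was a C at the annotated start followed by at least 4 bases that are C or T. It lay at 13 of the 73 starts (17.8%), against 823 of 32851 starts of all genes (2.51%). When the C could lie up to 10 bases to either side of the annotated start, 54.8% of the members' starts and 30.7% of all starts held the motif. In the windows below, which run from 10 bases before the start to 20 bases from it, capitals mark the pyrimidine run that begins at the annotated start. The first set holds members named below whose annotated start had the motif, at chr4:86857348-86857377 (minus strand), chr11:114668570-114668599 (plus), chr7:141447641-141447670 (plus), chr3:90213629-90213658 (minus), chr9:120571507-120571536 (plus) and chr7:118116128-118116157 (minus).
Rps6: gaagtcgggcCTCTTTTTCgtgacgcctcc
Rpl38: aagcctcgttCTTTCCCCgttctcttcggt
Rplp2: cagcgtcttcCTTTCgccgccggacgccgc
Rps27: cgctttcgctCCTTTCCggcggtgacgacc
Rpl14: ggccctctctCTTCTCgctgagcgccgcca
Rps15a: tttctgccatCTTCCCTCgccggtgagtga

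The second set holds members that were highest in level or lowest in p and whose annotated start lacked it, at chr10:128549149-128549178 (minus), chr7:3704031-3704060 (plus), chr8:123102340-123102369 (plus), chr17:24720053-24720082 (plus) and chr7:24884582-24884611 (plus, the first of 3 annotated starts of Rps19).
Rpl41: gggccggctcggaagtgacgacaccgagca
Rps9: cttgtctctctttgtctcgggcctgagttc
Rpl13: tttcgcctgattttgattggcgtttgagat
Rps2: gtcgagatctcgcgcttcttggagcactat
Rps19: aatctcgcgagactcgacgcccgacttgtg

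The lack of the motif at an annotated base says only that these letters do not stand there. The 13 members with the motif at a start had a median level of 290.4 RPKM and a median log2 difference (MC-21 minus PBS) of 0.01, with 6 of 13 lower in MC-21. The other 49 matched members had a median of 391 RPKM and a median log2 difference of -0.04, with 33 of 49 lower.

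Read depth was estimated from the steps of the low values at 1592000 to 3962000 mapped reads per library, and the shallowest library was MC-21 mouse 3. Over the genes tested, Pearson's r between libraries was 0.943 to 0.974 on log2(RPKM + 1). The sorted cells carried the 10 neutrophil markers listed, whose RPKM summed to 18643 to 31901 in PBS and 28953 to 42807 in MC-21. Of the 15 monocyte and macrophage markers, 14 had a row and 13 were tested. Of those 13, 11 were lower in MC-21 and 5 of them had an adjusted p under 0.05 (limma). Over all genes tested 69.4% were lower and 0.625% had an adjusted p under 0.05 in either direction. The sum of the 14, in which markers of high level weigh most, went the other way. It was 875 to 1365 in PBS and 1355 to 1651 in MC-21. Marker sums were 58.8 to 147 RPKM in PBS and 66.2 to 96.5 in MC-21 for 9 neutrophil precursor genes, 24.1 to 47.0 and 16.1 to 18.2 for 13 lymphocyte genes, 247 to 555 and 264 to 415 for 8 hepatocyte genes, and 678 to 1070 and 665 to 781 for 6 endothelial genes. No marker with a row was at 0 in all 7 libraries. The part of other cells in the values of the ribosomal proteins was not tested, and fewer cells of a type cannot be told apart from less RNA per cell in these bulk libraries.

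Ribosomal protein mRNAs were among the most abundant of the sorted neutrophils. Of the 83 members, 71 averaged at least 100 RPKM and 14 at least 1000 RPKM, out of 698 and 71 genes in the table, respectively. Their median was 399 RPKM, against 7.73 RPKM over the 9594 genes tested, and 22 members were among the 100 highest genes of the table. RPKM divides by transcript length, while a 3′ library gives reads near the end of a transcript only, so that short mRNAs such as these stand higher per kilobase than they would per molecule.

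**Figure D1:**
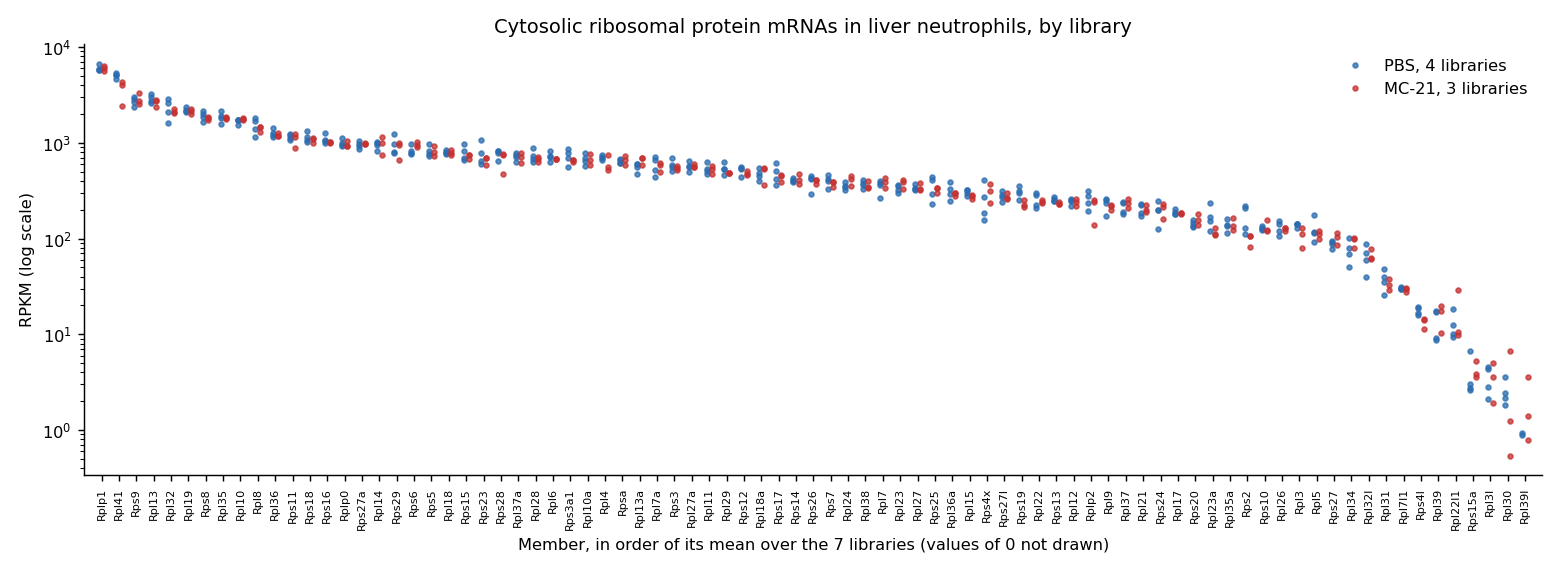
RPKM (log axis) of each of the 83 ribosomal protein genes in the 4 PBS (blue) and 3 MC-21 (red) libraries, with genes ordered by their mean over the 7 libraries and values of 0 left out. Levels fell from 6031 RPKM for Rplp1 to 1.08 RPKM for Rpl39l, and the points of the groups overlapped in all but 6 members.

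The members held 13.2%, 11.4%, 11.8% and 12.2% of the summed RPKM of PBS mice 5 to 8, and 11.5%, 11.1% and 11.3% of that of MC-21 mice 2 to 4. The mean share was 12.1% ± 0.766 (SD, n = 4) in PBS and 11.3% ± 0.227 (SD, n = 3) in MC-21, and the groups overlapped. Each value was also multiplied by a transcript length, which gives reads rather than reads per kilobase. The 81 members with a length held 6.15% ± 0.504 (SD, n = 4) of the reads in PBS and 6.09% ± 0.233 (SD, n = 3) in MC-21. Rpl41, with a mean of 4415 RPKM and lower in MC-21, and Rpl32l had no length and are missing from this share. The length taken for Rpl24, 4999 bases, is uncertain, as are other long ones such as those of Rps20 (3706 bases) and Rpl5 (2045 bases). On both scales PBS mouse 5 was the highest library, and the difference in share between the groups was not tested. The highest PBS value was found in mouse 5 for 58 of the 83 members, and the lowest in mouse 6 for 38 of them. The median level of the members was 455 RPKM in PBS mouse 5 and 394 to 403 RPKM in the other PBS mice. It was 394, 392 and 453 RPKM in MC-21 mice 2 to 4.

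**Figure D2:**
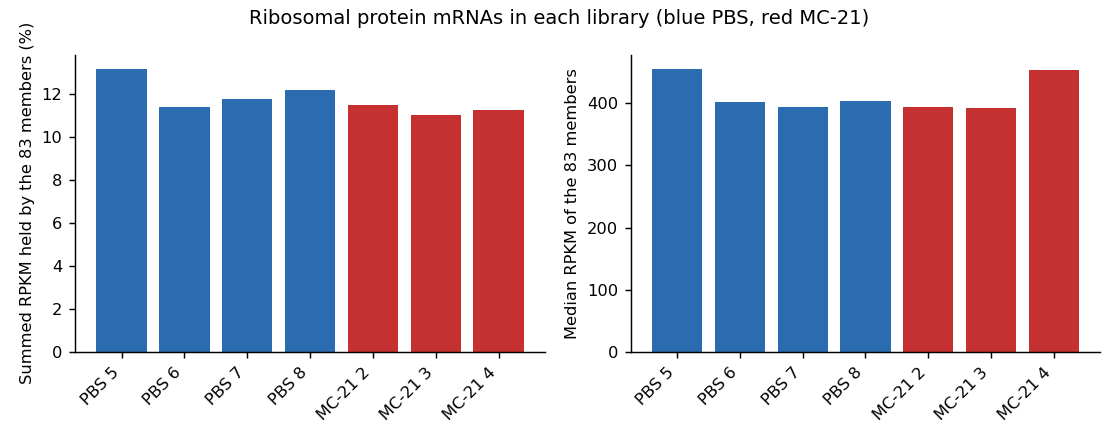
Share of the summed RPKM held by the 83 members (left, %) and their median RPKM (right) in each PBS (blue) and MC-21 (red) library, as bars from 0. The share ran from 11.1% to 13.2% with PBS mouse 5 highest, and the median was highest in PBS mouse 5 and MC-21 mouse 4.

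The members varied little among the PBS mice, and the spread among the MC-21 mice was not summarised in this way. Over the 4 PBS libraries the median coefficient of variation (CV) was 12.7% for the members, 21.0% for all genes tested and 14.2% for the 627 other genes averaging at least 100 RPKM, and 28 members had a CV under 10%. The smallest CVs were those of Rpl7l1 (3.02%), a paralog of Rpl7, Rpl18 (3.89%) of the large subunit and Rps14 (3.91%) of the small subunit. The largest were those of Rpl39l (115%), which was near 0, Rps15a (52.2%) and Rps4x (44.8%). Rps4x, the X-linked small-subunit gene whose human counterpart has a copy on the Y chromosome, stood at 410, 184, 156 and 273 RPKM in PBS mice 5 to 8 and at 311, 368 and 234 RPKM in MC-21 mice 2 to 4. Its spread within PBS covered all 3 MC-21 values.

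The mRNA levels of the core genes were far apart, although the ribosome takes nearly all of their proteins in equal number. Protein was not measured. Between the quartiles of the 76 core members the mean ran from 233 to 838 RPKM. The highest core member exceeded the lowest, Rpl30, which rests on a few reads, by 2281-fold. The highest was Rplp1, an acidic protein of the stalk that recruits elongation factors, with 6721, 5769, 5964 and 5782 RPKM in PBS mice 5 to 8 and 6053, 5602 and 6323 RPKM in MC-21 mice 2 to 4. Rpl41, the smallest protein of the large subunit, followed at 4415 RPKM, then Rps9, which helps the small subunit to read codons accurately, at 2788 RPKM. Rpl13 and Rpl32, both of the large subunit, had means of 2781 and 2223 RPKM. The lowest were 2 paralogs, Rpl39l (1.08 RPKM) and Rpl3l (3.47 RPKM), and 2 core genes, Rpl30 (2.64 RPKM) and Rps15a (3.98 RPKM), with the paralog Rpl22l1 at 14.3 RPKM. The core gene Rpl39, which lines the exit tunnel, stood just above Rpl22l1, also at 14.3 RPKM.

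Some core genes stood beside higher rows of their copies, most of which the symbol rule leaves out. Where the table held a row of a processed copy or close relative, 11 such pairs were formed with 10 parents. They were chosen after their values were seen. The low core genes Rpl30 and Rpl39 were in none of these pairs, and Rpl32l, paired with Rpl32, is itself a member. The copy exceeded the parent in all 7 libraries in 8 of the 11 pairs, and the parent exceeded the copy in all 7 in 2 pairs (Rpl14 and Rpl32). Rpl31, whose gene lies at chr1:39424696-39428753 (mm9), had 35.6 RPKM and Rpl31-ps12, at chr16:16819842-16820216, had 758 RPKM. Rpl34, at chr3:130429749-130433316, had 83.2 RPKM and Rpl34-ps1, at chr6:71074583-71074994, had 1110 RPKM. Rplp2, the second acidic stalk protein, at chr7:148633269-148637484, had 237 RPKM and Rplp2-ps1, at chr12:76731924-76732365, had 1896 RPKM. The copies differ in kind, since the GENCODE annotation lists the rows of Rpl31 and Rpl34 as pseudogenes and Rplp2-ps1 as protein-coding.

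The shared sequence behind these rows was counted in 32-base words of the parent's coding part. Of those words, 73.8% occurred at the copy of Rpl31, 80.2% at that of Rpl34 and 79.8% at that of Rplp2. The copy of Rpl14 held 78.7% of its parent's words as well, but there the parent was the higher row, with 954 RPKM against 120 RPKM. Rpl36al, a relative of Rpl36a at which 0 of the parent's coding words occurred, stood at 608 RPKM against 304 RPKM. Rpl37 (222 RPKM) and Rpl37rt (2038 RPKM), Rps19 (273 RPKM) and Rps19-ps3 (517 RPKM), and Rps15a (3.98 RPKM) and Rps15a-ps6 (23.2 RPKM) were further pairs with the copy above the parent. The ratio of Rps27rt to Rps27, a zinc-finger protein of the small subunit, stayed at 1.86 to 1.92 over the 7 libraries, while the ratio of Rplp2-ps1 to Rplp2 ranged from 6.18 to 12.9. How reads that fit several places were assigned is not given in the sources used here, so the level of a parent and of its copy are uncertain one by one.

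**Figure D3:**
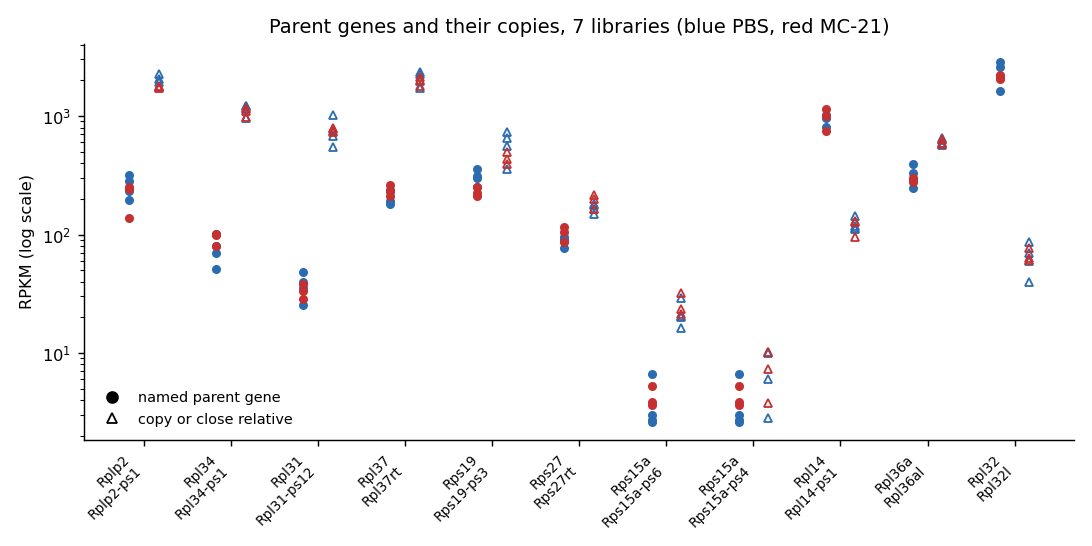
RPKM (log axis) of 10 parent genes (filled circles) and of the 11 copies or close relatives with a row of their own (open triangles), 1 point per library, PBS in blue and MC-21 in red. The copy stood above the parent in all 7 libraries in 8 pairs, and below it in all 7 for Rpl14 and Rpl32.

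Such sharing was common among the members. Of the 81 members with a transcript in the annotation, 71 had more than 50% of their coding words at other places of the genome. All words lay elsewhere for 30 members, and none for 2, Rpl3l and Rpl24. The transcript taken for Rpl24 has 4999 bases, in a gene annotated at chr16:55966388-56009026. Whether its coding part is that of the ribosomal protein was not tested, so the count for Rpl24 is uncertain. Rpl30 had 89.9% of its words elsewhere and Rps15a 94.7%, but Rpl13, with 100%, was among the highest rows. Over the 81 members Spearman's rho between the share of words elsewhere and the mean level was 0.07, a description across genes that share libraries.

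MC-21 neutrophils differed little from PBS neutrophils in ribosomal protein mRNA. No member reached an adjusted p under 0.05 in limma (Benjamini-Hochberg over the whole table of tested genes), against 60 of 9594 genes (0.625%), and the smallest adjusted p of a member was 0.251. An unadjusted p under 0.05 was reached by 7 members (8.43%), with 6 falling below PBS and 1 above it, against 14.7% of all genes tested. PBS and MC-21 values did not overlap in 6 members (7.23%), all of them lower in MC-21, against 13.3% of all genes, of which those lower made up 10.2%. Each of these shares was below that of all genes tested. With 1 library left out, 2 to 7 members had an unadjusted p under 0.05 and 7 to 15 did not overlap, with 15 when PBS mouse 6 was left out, and 0 had an adjusted p under 0.05. Fewer libraries overlap less often over all genes too: without PBS mouse 6, 18.1% of the members and 22.0% of all genes tested did not overlap. Under each of the 7 omissions both shares were lower for the members than for all genes tested.

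The median log2 difference of the members was -0.04, against -0.15 over all genes tested and -0.02 over the 627 other genes of at least 100 RPKM. Of the 83 members, 54 (65.1%) were lower in MC-21, against 69.4% of all genes tested and 55.7% of the other highly expressed genes. The sign of this small shift depended on the scale. With each library centred on its median, 11 members were lower and 72 higher, with a median of 0.13. That centring moved the median of all genes from -0.15 to 0.02. With quantile normalization 55 members were lower, and with libraries scaled to equal totals over genes that are not members 63 were lower. The sign also depended on PBS mouse 5, without which 38 members were lower and 45 higher and the median was 0.01. On the deposited scale the median was -0.08 for the 32 small-subunit members, 20 of which were lower, and -0.04 for the 51 large-subunit members, 34 of which were lower.

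The intervals were narrow for most members. The absolute log2 difference was under 0.25 in 71 members (85.5%), against 53.8% of all genes tested and 65.7% of the other genes of at least 100 RPKM, and on the log2(RPKM + 1) scale 0 members differed by 2-fold or more. This scale understates low genes, and with a pseudocount of 0.1 the difference of Rpl39l was 2.41. The 95% interval of limma lay inside 1.5-fold either way for 61 members and inside 2-fold for 78. It reached 2-fold for Rps4x, Rps2, Rpl22l1, Rpl30 and Rpl39l, of which Rpl30 and Rpl39l rest on a few reads, since 1 RPKM over 1 kilobase of transcript is worth only 1.59 to 3.96 reads, depending on the library.

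**Figure D4:**
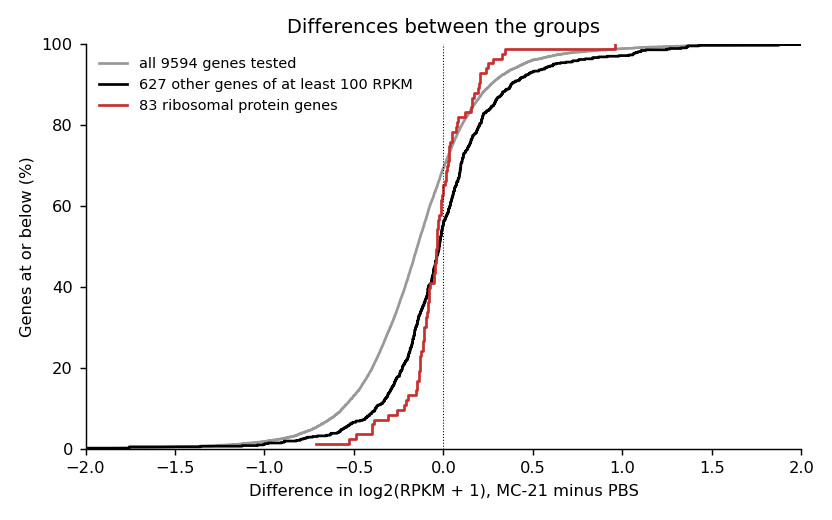
Cumulative share of genes (%) by their difference in log2(RPKM + 1), MC-21 minus PBS, for the 83 ribosomal protein genes (red), all 9594 genes tested (grey) and the 627 other genes of at least 100 RPKM (black), drawn from -2 to 2. The red line is the steepest, with 85.5% of members within 0.25 of 0, and its median of -0.04 lies to the right of that of all genes tested, -0.15.

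The 5 smallest p-values among the members were those of Rps2, Rps19, Rpl41, Rpl39l and Rps4l, and none passed the adjustment. Rps2, a small-subunit protein near the entry of the mRNA, stood at 221, 128, 112 and 207 RPKM in PBS and at 106, 107 and 81.0 RPKM in MC-21. All 3 MC-21 values lay below the 4 PBS values, of which mice 6 and 7 were close to them. The log2 difference was -0.72 (SE 0.25, adjusted p = 0.251, limma), the largest fall among the members, and 86.3% of the coding words of Rps2 occurred elsewhere, at a median of 24 places.

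Rps19, the small-subunit protein most often mutated in Diamond-Blackfan anaemia, stood at 355, 254, 299 and 312 RPKM in PBS and at 213, 226 and 249.8 RPKM in MC-21. The groups did not overlap, but PBS mouse 6 and MC-21 mouse 4 differed by less than 5 RPKM. The log2 difference was -0.40 (SE 0.14, adjusted p = 0.261, limma). Its copy Rps19-ps3 overlapped between the groups, at 354 to 729 RPKM in PBS and 397 to 493 RPKM in MC-21.

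Rpl41 stood at 5351, 4602, 5071 and 5088 RPKM in PBS and at 4360, 4005 and 2430 RPKM in MC-21. Again all MC-21 values were below those of PBS, and MC-21 mouse 4 was the lowest by far. The log2 difference was -0.53 (SE 0.19, adjusted p = 0.266, limma), and it was -0.26 without MC-21 mouse 4.

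Rpl39l, a paralog of Rpl39 known from the testis, was the only member of the 7 that was higher, at 0.899, 0, 0.934 and 0 RPKM in PBS and 1.39, 0.780 and 3.57 RPKM in MC-21. The groups overlapped, the values rest on a few reads, and the log2 difference was 0.96 (SE 0.39, adjusted p = 0.309, limma). It was 0.58 without MC-21 mouse 4 and 2.41 with a pseudocount of 0.1. Rps4l, an autosomal relative of Rps4x at chr6:148303178-148304120, stood at 18.8, 16.6, 16.0 and 19.3 RPKM in PBS and at 11.3, 14.0 and 14.5 RPKM in MC-21, with no overlap and a log2 difference of -0.39 (SE 0.16, adjusted p = 0.316, limma).

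The other 2 members with an unadjusted p under 0.05 were Rpl3 and Rpl23a. Rpl3, which reaches toward the catalytic centre of the ribosome, stood at 142, 143, 129.6 and 141 RPKM in PBS and at 129.0, 111 and 80.6 RPKM in MC-21. The lowest PBS mouse and the highest MC-21 mouse differed by less than 1 RPKM, and the log2 difference was -0.40 (adjusted p = 0.319, limma) and -0.21 without MC-21 mouse 4. Rpl23a, which sits at the exit of the peptide tunnel, stood at 233, 168, 119.5 and 152 RPKM in PBS and at 128, 112 and 108.5 RPKM in MC-21, so that the groups overlapped (log2 difference -0.49, adjusted p = 0.326, limma), and the difference was -0.32 without PBS mouse 5. Rps13 of the small subunit was the sixth member without overlap, at 245 to 271 RPKM in PBS and 229.9 to 243 RPKM in MC-21, a log2 difference of -0.12.

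Among members higher in MC-21 the 5 largest differences were those of Rpl39l, Rpl34 (0.34), Rps4x (0.33), Rpl39 (0.27) and Rpl22l1 (0.25), none with an adjusted p under 0.05. Rpl34 stood at 102, 69.2, 51.0 and 79.7 RPKM in PBS and at 102, 79.4 and 99.4 RPKM in MC-21. The 2 groups overlapped, and with the values of Rpl34-ps1 added the difference turned to -0.04. Without PBS mouse 7 the difference of Rpl34 was 0.17. Leaving out 1 library moved Rps4x to between 0.12 (without PBS mouse 7) and 0.59 (without PBS mouse 5), and Rpl39 to between 0.10 (without MC-21 mouse 4) and 0.54 (without MC-21 mouse 2).

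**Figure D5:**
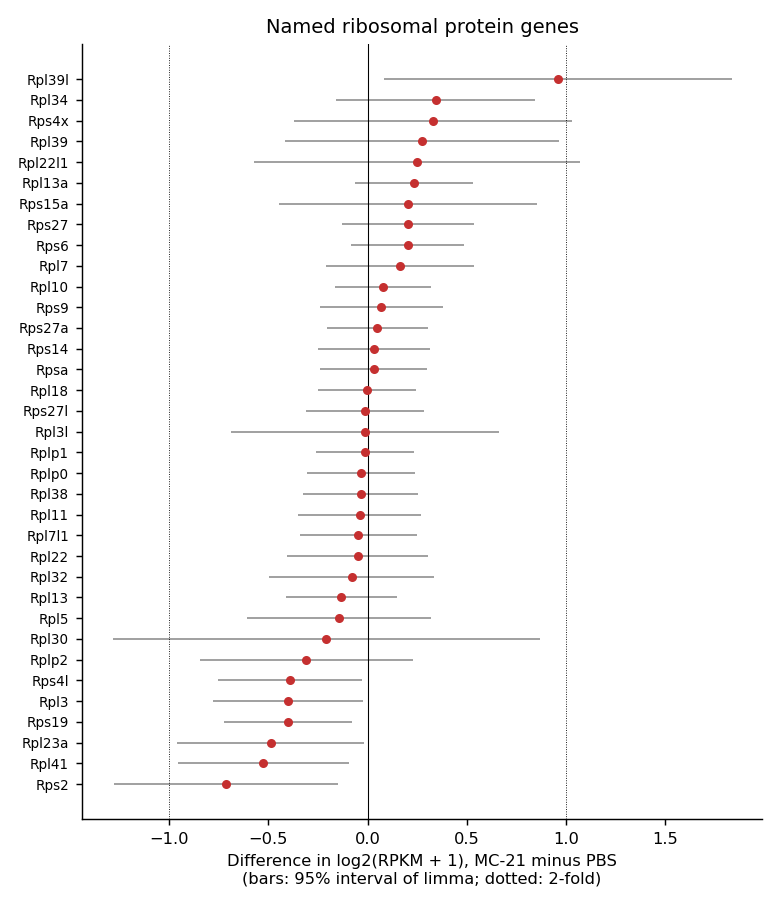
Difference in log2(RPKM + 1), MC-21 minus PBS, of the named ribosomal protein genes, with the 95% interval of limma as bars and dotted lines at 2-fold. Rps2 (-0.72) lies lowest and Rpl39l (0.96) highest, and the intervals of most genes cross 0.

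The stalk proteins and the members with roles beyond the core of the ribosome differed by -0.40 (Rps19, above) to 0.24 (Rpl13a) on the log2 scale, none with an adjusted p under 0.05. Rplp0, the scaffold of the stalk, was also the reference gene of the PCR with which the study followed Cybb, the NADPH oxidase subunit. It stood at 989.5, 1131, 943 and 927 RPKM in PBS and at 1054, 934 and 929.9 RPKM in MC-21. The groups overlapped over most of their range, with a log2 difference of -0.03 (95% interval -0.31 to 0.24). The two-sided exact permutation test over the 35 ways to assign 3 of 7 mice gave p = 0.657, and the smallest p it can give is 0.0286. Its CV over the 7 libraries was 7.95%, the 13th smallest of the 83 members, whose median was 12.5%. Per 1000 RPKM of Rplp0, Cybb stood at 16.2, 12.6, 20.7 and 12.6 RPKM in PBS and at 5.81, 9.77 and 6.51 RPKM in MC-21, so the Cybb values of the groups did not overlap on this scale. The paper also reported lower Cybb in MC-21 neutrophils from this RNA-seq, so these values are no separate check of the PCR.

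Rplp1 differed by -0.01 and Rplp2 by -0.31 on the log2 scale, and Rplp2 overlapped between the groups, with 280, 196, 234 and 316 RPKM in PBS and 243, 251 and 138 RPKM in MC-21. Without MC-21 mouse 4, the lowest library, the difference of Rplp2 was -0.03, and without PBS mouse 8 it was -0.20. Rps6, whose phosphorylation by the S6 kinases is the usual readout of mTORC1, stood at 977.5, 822, 786 and 757.5 RPKM in PBS and at 1014, 904 and 953 RPKM in MC-21, a log2 difference of 0.20 (95% interval -0.08 to 0.49). Rpl13a, known to leave the ribosome of myeloid cells after interferon-gamma and to silence inflammatory mRNAs, stood at 602, 601, 559.9 and 478 RPKM in PBS and at 699.5, 589 and 687 RPKM in MC-21, a log2 difference of 0.24 (95% interval -0.06 to 0.53). In both genes the MC-21 mean was the higher and the groups overlapped.

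Rpl5 and Rpl11, which bind Mdm2 and stabilise p53 when ribosome assembly fails, differed by -0.15 and -0.04, with Rpl5 at 92.5 to 175 RPKM and Rpl11 at 469 to 634 RPKM over the 7 libraries. Rpsa, also known as the laminin receptor, differed by 0.03, Rps27a, made as a fusion with ubiquitin, by 0.05, and Rpl10, one of the last proteins to join the large subunit, by 0.08. Rpl38, needed for the translation of Hox mRNAs, and Rpl22, a paralog partner of Rpl22l1, differed by -0.04 and -0.05. All 7 of these overlapped between the groups.

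The paralog pairs were compared by the share of each row. Rps27l, a p53 target, was the higher row of its pair, at 75.8% ± 2.45 (SD, n = 4) of the summed RPKM of Rps27 and Rps27l in PBS and 73.0% ± 1.96 (SD, n = 3) in MC-21, without counting Rps27rt. All coding words of Rps27 occur elsewhere, and with Rps27rt added to Rps27 the share of Rps27l was 52.0% ± 3.31 (SD, n = 4) in PBS and 48.2% ± 2.43 (SD, n = 3) in MC-21. In the other 5 pairs the core gene was the higher row. In PBS the paralog made up 8.13% ± 1.35 of Rpl7 and Rpl7l1, 7.14% ± 2.15 of Rps4x and Rps4l, 4.94% ± 2.17 of Rpl22 and Rpl22l1, 3.51% ± 4.34 of Rpl39 and Rpl39l, and 2.41% ± 0.751 of Rpl3 and Rpl3l, the form of heart and skeletal muscle (SD, n = 4). In MC-21 these shares were 7.07% ± 0.954, 4.34% ± 1.31, 6.31% ± 3.90, 10.5% ± 5.60 and 3.46% ± 2.18 (SD, n = 3). The shares of the groups overlapped in each of the 6 pairs. For Rps4l they were 4.39% to 9.32% in PBS and 3.51% to 5.85% in MC-21, and for Rpl22l1 the highest was 10.8% in MC-21 mouse 2, against 3.77% and 4.36% in the other MC-21 mice.

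The other genes of translation were read from 7 lists, and in none of them did a gene reach an adjusted p under 0.05 (limma). Of the ribosomal proteins outside the symbol rule, 4 were tested, with a median log2 difference of -0.15. Rack1, a signalling scaffold on the small subunit, was lower without overlap (-0.30, unadjusted p = 0.0485, adjusted p = 0.336, limma), at 463, 382, 373 and 415 RPKM in PBS and 366, 302 and 329 RPKM in MC-21. Fau, made as a fusion with a ubiquitin-like protein, differed by 0.19.

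Of 37 translation initiation factors, 26 (70.3%) were lower, 4 of them (10.8% of the list) with an unadjusted p under 0.05 and 6 (16.2%) without overlap, against 69.4%, 14.7% and 13.3% of all genes tested, and the median was -0.15, as over all genes. The largest fall was that of Eif3d, the cap-binding subunit of eIF3, at 34.5, 19.97, 20.9 and 33.7 RPKM in PBS and 17.6, 15.1 and 16.8 RPKM in MC-21 (-0.65, adjusted p = 0.244, limma), and the largest rise was that of Eif1a (0.38, adjusted p = 0.507, limma), which overlapped and was 0.20 without MC-21 mouse 2 and 0.57 without MC-21 mouse 3. Of 10 elongation and termination factors, 7 were lower, 0 of them with an unadjusted p under 0.05, with a median of -0.14, between Eef1e1 (-0.76), a scaffold of tRNA synthetases, and Eif5a (0.15), which helps the ribosome past proline stretches. Both overlapped between the groups, and Eef1e1 was at 0.02 without MC-21 mouse 4 and at -1.38 without MC-21 mouse 2.

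Of 18 genes outside the ribosome with a known TOP motif, some of which are also in the lists above, 15 (83.3%) were lower, against 69.4% of all genes tested, and the median was -0.13. Vim, the intermediate filament protein vimentin, stood at 358, 369, 495 and 358 RPKM in PBS and at 277, 227 and 180 RPKM in MC-21, and was the gene nearest to a call in the 7 lists (-0.80, SE 0.18, adjusted p = 0.0968, limma). Gas5, a host gene of small nucleolar RNAs, differed by 0.43 at 0.692 to 2.95 RPKM (0.21 without MC-21 mouse 3 and 0.66 without MC-21 mouse 4). Apart from Vim no gene of this list had an unadjusted p under 0.05 (5.56% of the list, against 14.7% of all genes tested, limma). Vim and Eif4b were its 2 genes without overlap (11.1% of the list, against 13.3%).

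Of 34 ribosome assembly factors tested, 30 (88.2%) were lower with a median of -0.22, 3 of them (8.82% of the list) with an unadjusted p under 0.05 and 0 without overlap. Over all genes tested 69.4% were lower with a median of -0.15, 14.7% had an unadjusted p under 0.05 and 13.3% did not overlap. Their median level was 10.5 RPKM. The extremes were Rrs1 (-0.81), which acts in large-subunit assembly and was at 0.702 RPKM in MC-21 mouse 4, and Gnl3 (0.18), nucleostemin. The difference of Rrs1 was -0.13 without MC-21 mouse 4 and -1.35 without MC-21 mouse 2. Of 15 genes of growth signalling to the ribosome, 9 were lower with a median of -0.06. The extremes were Rheb (-0.51), the GTPase that activates mTORC1, at 36.2 to 70.3 RPKM in PBS and 78.4, 62.8 and 9.22 RPKM in MC-21, and Rptor (0.58, unadjusted p = 0.0395, adjusted p = 0.319, limma), its substrate-binding subunit, at 2.91 to 3.25 RPKM in PBS and 3.19, 5.46 and 7.42 RPKM in MC-21. The lowest Rheb value was that of 1 library, MC-21 mouse 4, without which the difference was 0.42. It was -1.06 without MC-21 mouse 2 and -0.90 without MC-21 mouse 3, and that of Rptor was 0.35 without MC-21 mouse 4.

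Mitochondrial ribosomal proteins, which build the separate ribosome of the mitochondrion, lay on average lower in level than the cytosolic ones, with a median of 30.3 RPKM over 77 genes. Of these 77, 58 (75.3%) were lower in MC-21 with a median of -0.10, against 69.4% and -0.15 over all genes tested. An unadjusted p under 0.05 was found for 7 (9.09%), against 14.7%, and 8 (10.4%) lay wholly below PBS, against 10.2%. The extremes were Mrps30 (-0.86, adjusted p = 0.372, limma), at 1.13 RPKM in MC-21 mouse 4 and 4.55 RPKM or more in the other 6 libraries, and Mrpl53 (0.31, adjusted p = 0.366, limma). Without MC-21 mouse 4 the difference of Mrps30 was -0.32. The difference between the mitochondrial and the cytosolic set was not tested.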

How the data were processed

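3′ RNA-seq libraries of neutrophils sorted at 24 h following AILI, 1 per liver, were made from 4 PBS and 3 MC-21 mice. The authors aligned them to mm9 (HISAT 0.1.5, per the labels) and computed RPKM per gene with Partek 6.6, and these deposited RPKM values are the unit used here. The annotation and the treatment of multi-mapping reads are not given in the sources used here. Of the table's columns, 3 hold no value.

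The members and gene lists were chosen with earlier results of these data known. The named members are those with roles in the list, paralog pairs, the 5 highest and lowest in level, the 5 largest rises and falls, the 5 smallest p, the 3 largest and smallest CVs and, from each list, the genes called or the largest rise and fall. Rps13, the copy pairs and their parents were named after their values were seen.

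Differences (MC-21 minus PBS) in log2(RPKM + 1) were fitted with limma 3.58.1 (eBayes with a trend, R 4.3.3) for the 9594 genes averaging at least 1 RPKM, and p-values were adjusted by Benjamini-Hochberg over all of these. Fold changes on this scale understate changes of low genes. The fit was tested on simulated data, where 180 of 200 genes changed by 2 on the log2 scale were recovered and 6 other genes were called. The largest difference among the core members was 0.715, and recovery of changes that small was not tested. Depth was estimated from low values of 616 genes, with 79.4% of 3027 values within 0.1 of a whole read. Positions and 32-base words came from NCBIM37 (mm9) and GENCODE M1, using for each gene the transcript with the longest coding part, and 81 of 83 members had one. P-values measure the spread between mice of 1 experiment.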

Additional observations from a re-analysis of the deposited data

Results flagged for a closer look

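In the PBS group, 3 named members had 1 library far from the other 3 by Dixon's ratio, which flags about 1 in 20 groups by chance; 40 named members were examined, and the same 3 were the only ones among all 83. Rpl10 was at 1527 RPKM in PBS mouse 8 and at 1731 to 1746 RPKM in the other PBS mice. Rpl3 was at 129.6 RPKM in PBS mouse 7 and at 141 to 143 RPKM in the others. Rps15a was at 6.71 RPKM in PBS mouse 5 and at 2.64 to 3.01 RPKM in the others, which is a few reads.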

How the results depend on the processing

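Each result was recomputed with 3 other scalings, another pseudocount (0.1), no filter or a filter of 5 RPKM, limma without a trend and without each library. No member and no gene of the lists had an adjusted p under 0.05 under any of these. No paired analysis was possible because the groups share no replicate numbers. The count of 54 members lower in MC-21 became 11 with libraries centred on their medians, where the median difference was 0.13. It was 55 with quantile normalization and 63 with equal totals over genes that are not members. Without single libraries the count ranged from 38 to 62, with PBS mouse 5 giving 38. The median difference then ranged from -0.07 to 0.013. The 7 members with an unadjusted p under 0.05 became 2 to 7 without single libraries (4 without PBS mouse 6, 2 without PBS mouse 8, 3 without MC-21 mouse 3 and 2 without MC-21 mouse 4). The 6 without overlap became 7 to 15 (15 without PBS mouse 6, 10 without PBS mouse 7, 13 without MC-21 mouse 2 and 10 without MC-21 mouse 3), or 8.43% to 18.1% of the members, while 16.0% to 24.3% of all genes tested did not overlap. Of the 10 members with at most 50% of coding words elsewhere, chosen after seeing the data, 7 were lower. Of these 10, 2 had an unadjusted p under 0.05 (limma) and 1 did not overlap. Over all genes tested the shares were 69.4%, 14.7% and 13.3%. The 10 include Rpl24, whose count of words is uncertain.

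Small differences changed sign. Centring on the median gave Rplp0 0.13, Rplp1 0.15, Rpl5 0.018, Rpl11 0.12, Rpl22 0.11, Rpl38 0.13, Rps27l 0.15, Rpl3l 0.15, Rpl7l1 0.12, Rpl13 0.032, Rpl32 0.084, Rpl18 0.16, Rps13 0.040, Rpl31 0.028 and Rpl36a 0.068, with an exact permutation p of 0.257 for Rplp0. Quantile normalization gave Rpsa -0.030, Rps27a -0.017, Rpl3l 0.16, Rpl7l1 0.051, Rps9 -0.0068, Rpl30 0.0032 and Rpl14 -0.060. Equal totals over genes that are not members gave Rpsa -0.013, Rps14 -0.012 and Rpl14 -0.029. Adding the copies, chosen after seeing the data, gave Rpl34 -0.038, Rpl31 0.031 and Rpl37 -0.031.

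Without single libraries the log2 differences ranged from -0.054 to 0.036 (Rplp1), -0.11 to 0.041 (Rpl11), -0.14 to 0.032 (Rpl22), -0.11 to 0.015 (Rpl38), -0.081 to 0.045 (Rps27l), -0.25 to 0.26 (Rpl3l), -0.23 to 0.037 (Rpl32), -0.055 to 0.033 (Rpl18), -0.093 to 0.028 (Rplp0), -0.28 to 0.029 (Rpl5), -0.12 to 0.18 (Rpl14), -0.21 to 0.015 (Rpl36a), -0.22 to 0.51 (Rpl22l1), -0.89 to 0.27 (Rpl30), -0.040 to 0.11 (Rpsa), -0.041 to 0.16 (Rps9) and -0.066 to 0.12 (Rps14). In the lists they ranged from -0.040 to 0.25 (Eif5a), -0.10 to 0.34 (Gnl3), -1.38 to 0.021 (Eef1e1) and -1.06 to 0.42 (Rheb). The cause was not tested. Depth limits what Rpl30, Rpl39l, Rpl3l and Rps15a can show.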
